A study of Mus musculus with 16 samples.

Results

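The Reg (regenerating islet-derived) family comprises small secreted C-type lectins of the pancreas and gut. Of the family, 6 mouse genes were followed across pancreas libraries: Reg1, Reg2, Reg3a, Reg3b, Reg3d and Reg3g. They were taken by gene symbol from a count table of 24019 genes. All 6 had a row there, and all 6 were among the 8236 genes that passed the filter on low counts. The study measured RNA in pancreas of mice aged 6 to 8 weeks, in 4 groups of 4 libraries. The Adam17ex cerulein group and the Adam17ex PBS group were Adam17ex/ex animals, which carry a hypomorphic (reduced-function) allele of the gene for ADAM17, a protease that releases membrane-bound ligands and receptors from the cell surface. The WT cerulein group and the WT PBS group were wild-type littermates, and the C57BL/6J strain is the one named for the colony. Cerulein, a cholecystokinin analogue that overstimulates acinar cells and gives acute pancreatitis, was injected into the peritoneum 7 times at hourly intervals at 50 µg per kg. Controls received 50 µl of phosphate-buffered saline (PBS) on the same schedule, and tissue was taken 1 h after the last injection. The labels name no tissue-restricted driver for the allele. They give 2 males in each Adam17ex group, 1 male in the WT cerulein group and 0 in the WT PBS group, and do not say whether replicates share a litter or a day, so p-values measure the spread between these animals.

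Reg proteins are made chiefly by acinar cells of the pancreas and by epithelium of the small intestine. Reg1 (lithostathine, or pancreatic stone protein) and Reg2 form one branch and are regular components of pancreatic juice. Reg3b is the mouse pancreatitis-associated protein, long known as an acute-phase product of the injured acinar cell, and Reg3g is a bactericidal lectin best known from the mouse gut. Cytokines that signal through gp130 and STAT3, such as interleukin 6, and interleukin 22 are known inducers of Reg3b and Reg3g. EXTL3 is a candidate receptor for Reg proteins.

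The 6 genes lie side by side on mouse chromosome 6 (GRCm38), within 98216 bases (chr6:78370657-78468872), and no other gene of the table lies in that span. In order of position they are Reg3b (chr6:78370657-78373466, plus strand), Reg3d (chr6:78375874-78378865, minus strand), Reg3a (chr6:78380709-78383827, plus), Reg2 (chr6:78395623-78408106, plus), Reg1 (chr6:78422711-78428667, plus) and Reg3g (chr6:78466269-78468872, minus). The genes are related in sequence. In GENCODE M21, aligned coding transcripts of Reg1 and Reg2 were 81.5% identical, those of Reg3a and Reg3b 75.9%, and those of Reg3b and Reg3g 74.7%. No run of 50 bases was shared between any pair of members, and the longest shared run was 35 bases, between Reg3b and Reg3g, which is shorter than the 101-base reads. How reads that fit more than 1 gene were counted is not given in the sources used here.

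The 250 bases before the RefSeq start (GRCm38.p6) are printed for the 5 members whose window held a match to 1 of 3 motifs, since these members differ in how they moved in the comparisons. RefSeq held a start for 6 of 6 members. Each sequence runs 5′ to 3′ on the gene's own strand, and capitals mark these matches on either strand: the 2-part pattern of the acinar PTF1 complex (CANNTG, then 6 bases, then TTCCCA), the STAT pattern TTCNNNGAA and the TATA box TATAAA. Positions are chr6:78425733-78425982 for Reg1, chr6:78404905-78405154 for Reg2, chr6:78370635-78370884 for Reg3b, chr6:78468875-78469124 on the minus strand for Reg3g and chr6:78378866-78379115 on the minus strand for Reg3d. For Reg1, Reg2 and Reg3b the window falls at least in part inside the gene's span as the count table gives it, which starts earlier than the RefSeq transcript.
Reg1: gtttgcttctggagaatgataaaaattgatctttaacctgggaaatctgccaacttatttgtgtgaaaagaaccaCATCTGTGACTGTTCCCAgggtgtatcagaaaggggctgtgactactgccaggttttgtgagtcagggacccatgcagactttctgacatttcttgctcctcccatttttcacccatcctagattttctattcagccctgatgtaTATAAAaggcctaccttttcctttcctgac
Reg2: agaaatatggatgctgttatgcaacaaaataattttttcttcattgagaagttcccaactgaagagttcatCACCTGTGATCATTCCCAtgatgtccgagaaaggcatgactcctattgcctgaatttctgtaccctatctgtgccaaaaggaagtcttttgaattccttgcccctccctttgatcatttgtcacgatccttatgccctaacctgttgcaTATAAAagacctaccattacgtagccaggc
Reg3b: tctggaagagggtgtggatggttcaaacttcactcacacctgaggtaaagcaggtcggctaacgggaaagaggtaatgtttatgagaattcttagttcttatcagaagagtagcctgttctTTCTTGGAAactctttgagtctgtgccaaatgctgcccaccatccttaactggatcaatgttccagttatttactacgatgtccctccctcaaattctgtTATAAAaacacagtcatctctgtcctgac
Reg3g: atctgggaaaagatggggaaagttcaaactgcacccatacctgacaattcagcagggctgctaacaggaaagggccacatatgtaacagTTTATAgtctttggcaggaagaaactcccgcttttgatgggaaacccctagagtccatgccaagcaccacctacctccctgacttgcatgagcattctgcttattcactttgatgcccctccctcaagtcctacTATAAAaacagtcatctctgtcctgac
Reg3d: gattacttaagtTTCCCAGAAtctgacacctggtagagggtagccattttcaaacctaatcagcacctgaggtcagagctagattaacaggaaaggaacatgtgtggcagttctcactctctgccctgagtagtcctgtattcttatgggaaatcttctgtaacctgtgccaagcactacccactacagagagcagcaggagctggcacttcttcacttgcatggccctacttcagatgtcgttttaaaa

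The PTF1 pattern was found in Reg1, from -175 to -158 before the start, and in Reg2, from -179 to -162. It was found in 29 of 32851 RefSeq promoter windows of the same length (0.0883%). The STAT pattern was found in Reg3b at -129 and in Reg3d at -238, and in 7.02% of all windows. TATAAA was found in Reg1, Reg2, Reg3b and Reg3g and in 12.4% of all windows. In Reg3g a TATAAA match lay on each strand. Of 4 further patterns, the C/EBP pattern TTGCNNAA was found in Reg2 and Reg3a (9.56% of all windows), the AP-1 pattern TGANTCA in Reg1 (6.75%), the E-box CACCTG in Reg2, Reg3a, Reg3b and Reg3d (17.2%), and the NF-kB pattern (GGGA, then 2 bases, then TTCC) in 0 of the 6 members (1.21%). The E-box match of Reg2 lies inside its PTF1 match. Both strands were searched, and the patterns were chosen after the sequences had been seen. A match is a description of the letters and not evidence of binding.

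Libraries held 455547 to 1476159 unique molecular identifiers (UMIs, the random tags that count molecules), and 3 of the 4 Adam17ex PBS libraries (replicates 1 to 3) were the shallowest. Adam17 itself had 3.16, 3.55, 2.40 and 4.09 CPM in the Adam17ex cerulein libraries, against 15.4, 11.1, 19.3 and 11.6 CPM in the WT cerulein libraries, and the groups did not overlap. Under PBS it had 2.60, 2.58, 6.03 and 5.05 CPM in Adam17ex, against 14.1, 11.9, 5.25 and 9.80 CPM in WT, and these groups overlapped. By edgeR the Adam17ex minus WT difference was -2.05 ± 0.40 on the log2 scale under cerulein (adjusted p = 0.00138) and -1.21 ± 0.49 under PBS (adjusted p = 0.21). CPM here is relative to all UMIs of the tested genes in a library, scaled by TMM factors. Acinar markers (6 of 6 detected in every library) summed to 32425 to 73860 CPM, so the tissue label held. 1 library stood apart in the Reg genes: WT PBS replicate 2. Values that rest on it are given with and without it where a call changes, and for most levels and differences that move by over 1.5 times. Counts come from bulk tissue, where fewer cells of a type and less RNA per cell cannot be told apart.

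**Figure D1:**
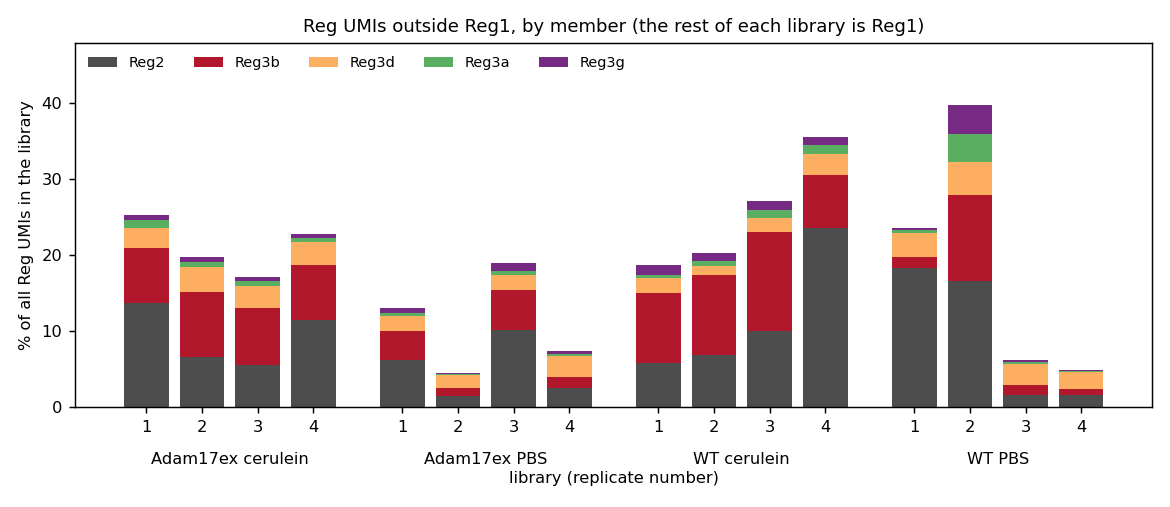
Reg UMIs outside Reg1, as a percentage of all Reg UMIs in each library (bars stacked by gene, 4 libraries in each of 4 groups; the remainder up to 100% is Reg1). The stack is lowest in Adam17ex PBS replicate 2, where Reg1 takes 95.5% of Reg UMIs, and highest in WT PBS replicate 2, where Reg1 takes 60.2%.

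Reg transcripts made up 1.05% to 2.53% of all UMIs in a library. The mean was 2.12% ± 0.29 in Adam17ex cerulein, 1.40% ± 0.40 in Adam17ex PBS, 1.67% ± 0.29 in WT cerulein and 1.65% ± 0.27 in WT PBS (SD, n = 4 each). Because libraries were primed at the poly(A) tail and the members' longest coding transcripts span only 698 to 904 bases, levels of different members were compared without a correction for length. Reg1 took most of the Reg UMIs in every library, from 60.2% in WT PBS replicate 2 to 95.5% in Adam17ex PBS replicate 2, and ranked between place 16 and place 22 among all genes by mean CPM in the 4 groups. The other 5 members together took 0.457% ± 0.138 of all UMIs in Adam17ex cerulein, 0.149% ± 0.088 in Adam17ex PBS, 0.437% ± 0.190 in WT cerulein and 0.334% ± 0.345 in WT PBS, the last being 0.173% ± 0.156 (n = 3) without replicate 2. By mean CPM, Reg2 and Reg3b followed Reg1 in all 4 groups, Reg3d came next, and Reg3a and Reg3g were the lowest. In WT PBS the place of Reg3b above Reg3d rested on replicate 2, without which Reg3b averaged 183 CPM and Reg3d 433 CPM.

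**Figure D2:**
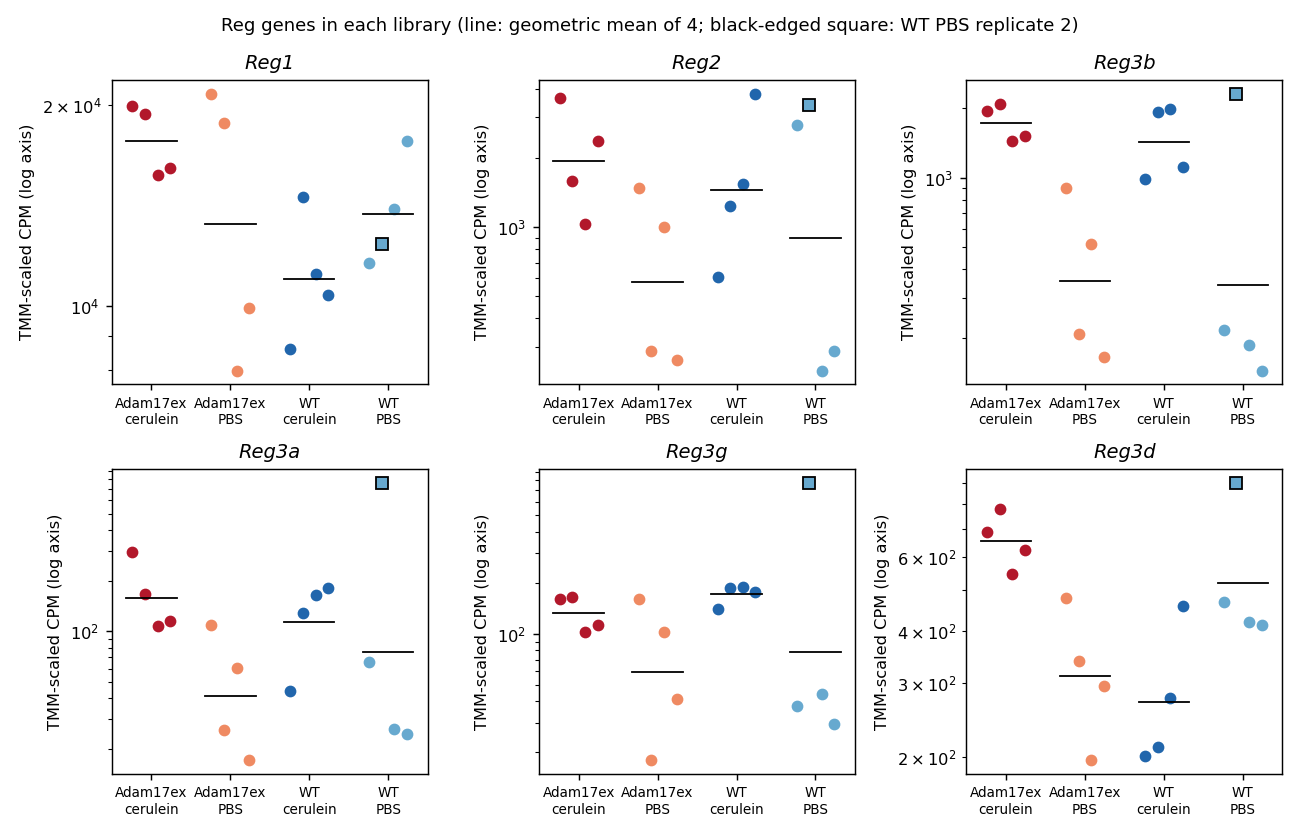
TMM-scaled CPM of each Reg gene in each of the 16 libraries (log axis, 1 panel per gene; points are libraries in the order of their replicate numbers, lines are geometric means of 4, and the black-edged square is WT PBS replicate 2). Reg3b, Reg3a, Reg3g and Reg3d are highest of all 16 libraries in WT PBS replicate 2, at 2322, 763, 774 and 900 CPM, while Reg1 at 12368 CPM is not raised there.

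Reg1 had 19870, 19337, 15684 and 16062 CPM in Adam17ex cerulein, and 20767, 18774, 7998 and 9925 CPM in Adam17ex PBS libraries. In WT cerulein it had 8629, 14527, 11142 and 10384 CPM, and in WT PBS 11592, 12368, 13934 and 17655 CPM. All 4 Adam17ex cerulein libraries lay above all 4 WT cerulein libraries, while the Adam17ex PBS libraries split into a high and a low pair that enclosed every WT PBS value. By group mean the order was Adam17ex cerulein (17738 ± 2170 CPM), Adam17ex PBS (14366 ± 6342), WT PBS (13887 ± 2694) and WT cerulein (11171 ± 2473), and the libraries of each neighbouring pair in this order overlapped.

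Reg2 had 3632, 1579, 1034 and 2377 CPM in Adam17ex cerulein, and 1472, 289, 1003 and 263 CPM in Adam17ex PBS libraries. In WT cerulein it had 607, 1236, 1539 and 3809 CPM, and in WT PBS 2783, 3409, 237 and 288 CPM. The WT PBS libraries thus formed a high pair (replicates 1 and 2) and a low pair (replicates 3 and 4) with no value between them. By group mean the order was Adam17ex cerulein (2155 ± 1128 CPM), WT cerulein (1798 ± 1396), WT PBS (1679 ± 1656) and Adam17ex PBS (757 ± 587), and neighbours in this order overlapped. Without replicate 2 the WT PBS mean was 1103 ± 1456 CPM (n = 3). The high pair in Adam17ex PBS (replicates 1 and 3) was the male pair. Under cerulein it was the reverse. The Adam17ex males (replicates 2 and 3) were the low pair, and the WT male (replicate 1) was the lowest of its group. As a percentage of Reg1 UMIs in the same library, Reg2 ran from 1.54% in Adam17ex PBS replicate 2 to 36.7% in WT cerulein replicate 4, so these 2 neighbouring genes did not keep a fixed proportion.

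Reg3b had 1946, 2085, 1438 and 1511 CPM in Adam17ex cerulein, and 905, 209, 512 and 166 CPM in Adam17ex PBS libraries. In WT cerulein it had 989, 1928, 1989 and 1110 CPM, and in WT PBS 216, 2322, 187 and 145 CPM. All 8 cerulein libraries lay above 7 of the 8 PBS libraries, and the exception, WT PBS replicate 2, lay above every other library. The group means were 1745 ± 319 CPM in Adam17ex cerulein, 448 ± 341 in Adam17ex PBS, 1504 ± 528 in WT cerulein and 717 ± 1070 in WT PBS, and the last became 183 ± 36.0 CPM (n = 3) without replicate 2. The 2 males of the Adam17ex PBS group (replicates 1 and 3) were again above its 2 females. In WT cerulein the only male (replicate 1) was the lowest of its group, and in Adam17ex cerulein the sexes overlapped.

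Reg3g had 159, 165, 102 and 113 CPM in Adam17ex cerulein, and 161, 18.1, 102 and 41.4 CPM in Adam17ex PBS libraries. In WT cerulein it had 139, 186, 188 and 176 CPM, and in WT PBS 37.6, 774, 44.1 and 29.4 CPM. In WT, the 4 cerulein libraries were close together and above 3 of the 4 PBS libraries. In Adam17ex the groups overlapped, since both males under PBS reached the cerulein range. The only male of WT cerulein (replicate 1) was the lowest of its group. Counts behind the lowest values are small, with 7 UMIs of Reg3g in Adam17ex PBS replicate 2. The WT PBS mean was 221 ± 368 CPM with replicate 2 and 37.0 ± 7.35 CPM (n = 3) without it.

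Reg3a, a close relative of Reg3b and Reg3g, had 294, 167, 108 and 114 CPM in Adam17ex cerulein, and 109, 25.8, 60.3 and 17.2 CPM in Adam17ex PBS libraries. In WT cerulein it had 44.3, 128, 165 and 181 CPM, and in WT PBS 65.8, 763, 26.2 and 24.5 CPM. The Adam17ex groups overlapped only by the highest PBS library, at 109 CPM, which passed the lowest cerulein library, at 108 CPM. In WT the groups overlapped even without replicate 2, since WT cerulein replicate 1 lay below WT PBS replicate 1. The group means were 171 ± 86.4 CPM in Adam17ex cerulein, 53.1 ± 41.8 in Adam17ex PBS, 130 ± 61.1 in WT cerulein and 220 ± 363 in WT PBS, the last being 38.9 ± 23.4 CPM (n = 3) without replicate 2.

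Reg3d, which is related to the islet neogenesis-associated protein of the hamster, showed another pattern. It had 689, 780, 546 and 623 CPM in Adam17ex cerulein, and 479, 338, 197 and 295 CPM in Adam17ex PBS libraries. In WT cerulein it had 201, 212, 276 and 457 CPM, and in WT PBS 469, 900, 419 and 412 CPM. The Adam17ex cerulein libraries were above all Adam17ex PBS and all WT cerulein libraries. In WT, by contrast, 3 of the 4 cerulein libraries were below every PBS library.

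In Adam17ex pancreas, cerulein raised Reg3b and Reg3d. Of all 8236 genes, 30.3% were called in this comparison in either direction (14.1% higher, 16.2% lower, adjusted p under 0.05), beside 2 of the 6 Reg genes. Reg3b was 2.11 ± 0.66 higher on the log2 scale (SE, adjusted p = 0.0187) and Reg3d 1.02 ± 0.29 higher (adjusted p = 0.0103), and in both every cerulein library was above every PBS library, as in 25.7% of all genes in either direction. Reg3a (1.74 ± 0.85, adjusted p = 0.125), Reg2 (1.43 ± 0.77, 0.165), Reg3g (0.88 ± 0.75, 0.398) and Reg1 (0.30 ± 0.26, 0.406) did not pass the test, and their 95% intervals ran from -0.02 to 3.497 for Reg3a, -0.16 to 3.02 for Reg2, -0.67 to 2.43 for Reg3g and -0.24 to 0.85 for Reg1. The median over the 6 genes was 1.22, against -0.03 over all genes tested. The Reg3b call was lost without Adam17ex PBS replicate 2 (1.88, adjusted p = 0.0674) or replicate 4 (1.81, 0.0692), and both calls were lost when the shallow Adam17ex PBS libraries 1 to 3 were left out together (Reg3b 3.56, adjusted p = 0.055; Reg3d 1.30, 0.0658), which leaves 1 library in that group, assumed to vary like the others. Without WT PBS replicate 2, 4 of the 6 were called higher, where 15.7% of all genes were (30.5% in either direction): Reg3b at 2.17 ± 0.37 (adjusted p = 0.000109), Reg3a at 1.81 ± 0.48 (0.00637), Reg3d at 1.08 ± 0.25 (0.00256) and Reg3g at 0.93 ± 0.33 (0.037). That library is not part of the contrast and enters only through the spread, the sex term and the gene filter that all groups share. Over all alternatives that gave one, the adjusted p ran from 7.04e-22 to 0.0692 for Reg3b and from 1.1e-06 to 0.0658 for Reg3d. DESeq2 gave none for Reg3a, Reg3b and Reg3g in any comparison. The fit with no filter on low counts had smaller SEs (for Reg2 0.23, against 0.77 in the main fit). Low adjusted p from that setting rest on them.

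In WT pancreas, the result for Reg3b, Reg3a and Reg3g turned on 1 library. With all 16 libraries, cerulein lowered Reg3d (-0.92 ± 0.29, adjusted p = 0.0134), the only one of the 6 called, in a comparison where 41.1% of all genes were called (19.8% higher, 21.3% lower). In 0 of the 6 were the groups free of overlap, against 39.3% of all genes. This count rests on WT PBS replicate 2. Without it, Reg3b (989 CPM or more under cerulein, 216 or less under PBS) did not overlap. Nor did Reg3g (139 CPM or more, against 44.1 or less). The share of all genes without that library was not counted. Reg3b (0.99 ± 0.62, adjusted p = 0.214), Reg2 (0.11 ± 0.68, 0.912), Reg1 (-0.29 ± 0.27, 0.414), Reg3g (-0.48 ± 0.67, 0.595) and Reg3a (-0.77 ± 0.72, 0.417) did not pass. With all 16 libraries the median over the 6 genes was -0.38, against -0.04 over all genes tested. That median rests on WT PBS replicate 2, and the 6 single differences without it are given next. Without WT PBS replicate 2, in a fit of 15 libraries and 8577 genes, Reg3b was 3.01 ± 0.41 higher (adjusted p = 5.3e-06), Reg3g 2.16 ± 0.37 higher (7.77e-05) and Reg3a 1.82 ± 0.50 higher (0.00636), so that 3 of the 6 were called higher, where 18.8% of all genes were (36.7% in either direction). Reg2 was at 0.77 ± 0.70 (0.413) and Reg1 at -0.30 ± 0.29 (0.443), neither of them called. In the same fit Reg3d was at -0.53 ± 0.27 (0.127) and no longer called. Its call was also lost without WT cerulein replicate 2 (-0.78, adjusted p = 0.054), and over all alternatives its adjusted p ran from 0.000398 to 0.243 with a difference below 0 in each. For Reg3b the range was 5.3e-06 to 0.418 and for Reg3g 7.77e-05 to 0.805. For Reg3a it was 0.00323 to 0.827, and the lowest belongs to a call in the other direction: with all libraries and no filter on low counts Reg3a was called lower, at -0.76.

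**Figure D3:**
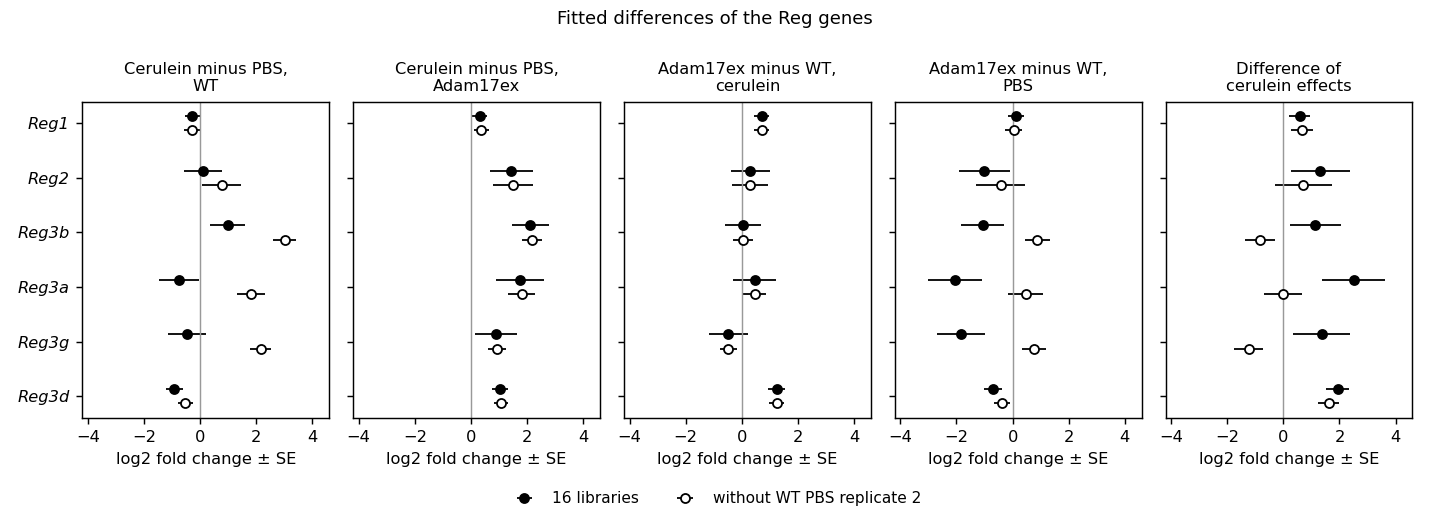
Fitted log2 fold changes of the 6 Reg genes in 5 comparisons (points, with bars of 1 SE; filled points from 16 libraries, open points without WT PBS replicate 2). In WT the open points of Reg3b, Reg3g and Reg3a lie at 3.01, 2.16 and 1.82, against 0.99, -0.48 and -0.77 for the filled points, while the Reg3d difference between genotypes under cerulein is 1.24 in both fits.

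Under cerulein, Adam17ex pancreas had more Reg3d RNA than WT pancreas. The difference was 1.24 ± 0.30 (adjusted p = 0.00791), with a group mean of 659 ± 99.4 CPM in Adam17ex against 286 ± 119 CPM in WT and no overlap between the groups. Of all genes, 9.7% were called in this comparison and 17.6% did not overlap in either direction, beside 1 and 2 of the 6 Reg genes. In the higher direction 5.85% of all genes were called. Without WT PBS replicate 2, 9.97% of all genes were called and again 1 of the 6. The second member without overlap was Reg1, at 0.71 ± 0.27, which did not pass the test over all genes (adjusted p = 0.107). Reg3a (0.45 ± 0.76), Reg2 (0.30 ± 0.70), Reg3b (0.05 ± 0.64) and Reg3g (-0.48 ± 0.69) had adjusted p from 0.728 to 0.974, and the 95% interval of the Reg3b difference ran from -1.26 to 1.37. The Reg3d call was lost in the female libraries alone (1.05, adjusted p = 0.0893) and without WT cerulein replicate 1 (1.01, 0.0905), and its adjusted p ran from 1.92e-06 to 0.0905 over all alternatives. Reg1 passed in 5 of 28 alternatives, with adjusted p from 0.0188 to 0.407.

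Under PBS, 0 of the 6 Reg genes differed between Adam17ex and WT by edgeR, in a comparison where 1.36% of all genes were called. The groups overlapped for all 6, and 10.4% of all genes did not overlap. At an unadjusted p under 0.05 there were 3 (Reg3a, Reg3d and Reg3g), against 16.6% of all genes, and limma-voom called 0 of 6 and DESeq2 0 of the 3 to which it gave an adjusted p. The differences were -2.05 ± 0.96 for Reg3a, -1.84 ± 0.85 for Reg3g, -1.07 ± 0.76 for Reg3b, -1.01 ± 0.91 for Reg2, -0.69 ± 0.32 for Reg3d and 0.12 ± 0.29 for Reg1. Without WT PBS replicate 2 the values for Reg3a, Reg3g and Reg3b were 0.46, 0.76 and 0.88, on the other side of 0. Reg2 was then at -0.42 and Reg3d at -0.37. None of these was called in that fit, where 0.839% of all genes were.

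The cerulein effect on Reg3d differed between the genotypes. The interaction (effect in Adam17ex minus effect in WT) was 1.94 ± 0.41 (adjusted p = 0.00631), rank 117 by p of 8236 genes, and 6.02% of all genes were called (3.75% with a positive interaction) beside this 1 of the 6 Reg genes. It was 1.61 ± 0.37 (adjusted p = 0.0115) without WT PBS replicate 2, where 5.67% of all genes were called, and lay between 1.61 and 2.25 over the fits that left out 1 library, all called. In the female libraries alone it was 1.88 with an adjusted p of 0.0641, the highest over all alternatives, and the lowest was 2.79e-09. Reg3a (2.51 ± 1.12, adjusted p = 0.193), Reg3g (1.36 ± 1.02, 0.471), Reg2 (1.32 ± 1.05, 0.499), Reg3b (1.13 ± 0.91, 0.502) and Reg1 (0.59 ± 0.38, 0.378) did not pass. Without WT PBS replicate 2, Reg2 was at 0.72, Reg3a at -0.01, Reg3b at -0.84 and Reg3g at -1.24, none of them called.

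Markers of other cell types differed between the groups as well. The summed small intestine epithelium markers (14 of the 18 listed had a row) were at 31.6, 102, 116 and 40.9 CPM in Adam17ex cerulein, 31.0 to 52.0 CPM in Adam17ex PBS, 19.9 to 22.2 CPM in WT cerulein and 29.4 to 42.4 CPM in WT PBS libraries. Lgals4 had 19, 80, 58 and 28 UMIs in the Adam17ex cerulein libraries, against 11, 7, 11 and 10 in WT cerulein. Phgr1 had 2, 13, 20 and 11 UMIs in Adam17ex cerulein, against 2, 3, 3 and 2 in WT cerulein. Defa24 had 4, 2, 1 and 10 UMIs in WT cerulein and 0 or 1 in every other library. The fatty acid binding genes Fabp1 and Fabp2 had 0 to 3 UMIs in each library. Summed duct markers (6 of 6 with a row) ran from 289 to 350 CPM in Adam17ex cerulein, 211 to 249 CPM in Adam17ex PBS, 890 to 1156 CPM in WT cerulein and 189 to 222 CPM in WT PBS. Summed islet markers (8 of 8 with a row) ran from 1752 to 6142 CPM in Adam17ex cerulein, 5065 to 22004 CPM in Adam17ex PBS, 1332 to 9120 CPM in WT cerulein and 4268 to 13214 CPM in WT PBS. Their part in the Reg results was not tested.

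In WT PBS replicate 2, 3 Reg genes were among the genes that stood farthest above the rest of the group. Its CPM relative to the highest of the other 3 WT PBS libraries, with 1 added to both, was over 8 for 5 of 8236 genes, and these 5 were Reg3g (17.2), Reg3a (11.4), Saa3 (11.4), Reg3b (10.7) and Hp (9.53). Over 4 there were 14 genes and over 2 there were 102, and 3 of them were Reg genes in both cases. Saa3 (serum amyloid A3, an acute-phase protein) had 131 CPM there against 10.6 CPM or less in the other 3, and Hp (haptoglobin) 176 against 17.6 or less. Lrg1 (leucine-rich alpha-2-glycoprotein, also acute-phase) had 83.4 CPM against 15.9 or less, and Ccl2, a monocyte chemokine, 11.9 against 1.23 or less. These genes were chosen after their values had been seen. Reg1, at 12368 CPM, lay within the range of the other 3.

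Markers of other cells were also high in that library. Its B cell and lymph node markers (6 of 7 detected) summed to 293 CPM, against 138 CPM or less in the other 3 of its group, macrophage markers (5 of 5) to 280 against 156 or less, adipocyte markers (6 of 6) to 484 against 194 or less and neutrophil markers (4 of the 7 listed had a row) to 35.7 against 9.40 or less. The intestinal sum was 42.4 CPM, against 29.4 to 38.8 CPM in the other 3. Adam17ex PBS replicate 3 had a macrophage sum of 639 CPM, a B cell sum of 269 CPM and 151 CPM of Hp. Its Reg3b was at 512 and its Reg3g at 102 CPM. Other libraries of that group went the other way. Adam17ex PBS replicate 4 had sums of 244 CPM (macrophage) and 711 CPM (adipocyte), but the lowest Reg3b of its group, at 166 CPM. Adam17ex PBS replicate 1 had the lowest macrophage sum of its group, at 93.6 CPM. Its Reg3b and Reg3g were the highest of that group, at 905 and 161 CPM. The part of these cells in the Reg values was not tested. Reg3b UMIs per Reg3g UMI numbered 3.00 in WT PBS replicate 2 and 5.75, 4.24 and 4.92 in the other 3 of its group. All 4 WT PBS libraries were thus below the 12.2 to 14.1 of Adam17ex cerulein and the 6.31 to 10.6 of WT cerulein. PBS and cerulein libraries were not separated in this way throughout. In Adam17ex PBS the ratio ran from 4 to 11.6, and replicate 2, at 11.6, lay above every WT cerulein library. That value rests on 7 UMIs of Reg3g. The WT PBS libraries other than replicate 2 had 24 to 42 UMIs of Reg3g.

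**Figure D4:**
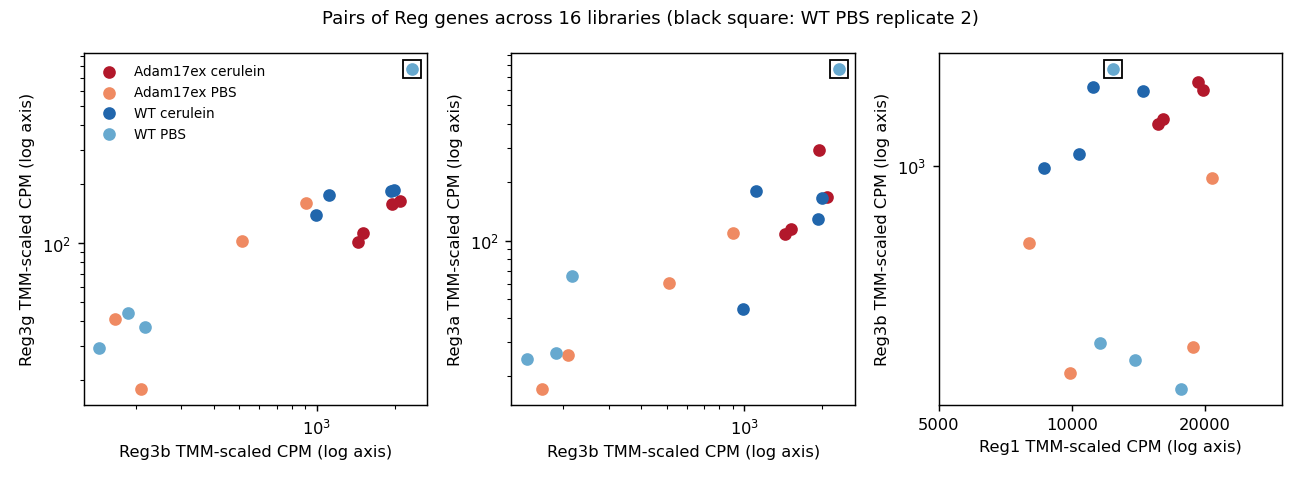
TMM-scaled CPM of pairs of Reg genes in the 16 libraries (log axes; colours give the group and the black square WT PBS replicate 2). Reg3g and Reg3a rise with Reg3b across libraries (Pearson r = 0.88 and 0.87 of log2 values), whereas Reg3b and Reg1 show no such relation (r = 0.11).

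Among themselves, Reg2, Reg3a, Reg3b and Reg3g moved together across libraries and Reg1 stood aside. Pearson's r of log2(CPM + 1) over the 16 libraries, which share groups, was 0.88 for Reg3b with Reg3g, 0.87 for Reg3a with Reg3b, 0.89 for Reg3a with Reg3g and 0.88 for Reg2 with Reg3a. With group means subtracted it was 0.95, 0.93, 0.89 and 0.84, and without WT PBS replicate 2 it was 0.92, 0.89, 0.83 and 0.90. With both changes together it was 0.85, 0.81, 0.69 and 0.87. Reg1 had r of 0.11 with Reg3b, -0.11 with Reg3g and 0.03 with Reg2, and with both changes 0.29, -0.01 and -0.04. Reg2 had 0.73 with Reg3b and 0.70 with Reg3g, and with both changes 0.57 and 0.53. Reg3d had 0.58 with Reg1, 0.55 with Reg3a, 0.48 with Reg2 and 0.29 with Reg3b and with Reg3g. With group means subtracted Reg3d had 0.35 with Reg1, 0.68 with Reg3a, 0.58 with Reg2, 0.53 with Reg3b and 0.54 with Reg3g. These values rested in part on WT PBS replicate 2. Without it the plain r was 0.69, 0.40, 0.40, 0.19 and 0.04, in the same order. With both changes it was 0.50, 0.47, 0.44, 0.16 and 0.16. These are descriptions, with no test.

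Over all tested genes with an official symbol, the 5 most like each member by that r were as follows. Reg1 was most like Fndc3a (0.88), Eprs (0.88), the chymotrypsinogen gene Ctrb1 (0.86), Dmbt1 (0.84) and the elastase gene Cela3b (0.82). Reg2 was most like Reg3a (0.88), Ifi205 (0.88), Mndal (0.80), Golga7 (0.76) and Coro2a (0.76). Reg3a was most like Reg3g, Reg2 and Reg3b, then Lrg1 (0.81) and Ifi205 (0.78). Reg3g was most like Reg3a and Reg3b, then Lrg1 (0.87), Wdr36 (0.81) and Snu13 (0.80). Reg3b was most like Ngdn (0.91), Vasp (0.88), Reg3g, Mrpl3 (0.88) and Reg3a. Reg3d was most like the ribosomal protein genes and pseudogenes Rps13-ps1 (0.88), Rpl34 (0.84), Rps6 (0.82), Rps15a-ps8 (0.80) and Rps15a-ps2 (0.79), and the last 4 had r between 0.55 and 0.71 with group means subtracted. These lists depended on WT PBS replicate 2. Without it, 4 of the 5 genes named for Reg1 were again among its 5 most like, 2 of 5 for Reg2 and for Reg3a, and 1 of 5 for Reg3b (Vasp), Reg3d (Rps13-ps1) and Reg3g (Reg3b). Reg3a was then most like Nrp1 (0.92, against 0.55 with the library), Reg3b most like Rock2 (0.94), Reg3g most like Ctnnd1 (0.95) and Reg3d most like Sema3c (0.88).

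Genes on the known routes to Reg induction were counted in a list of 28, of which 25 had a row and 18 passed the filter. The list also held the family member Reg4 and the candidate receptor gene Extl3. Extl3 is among the 18 and among those counted as lower in both genotypes. Under cerulein 7 of the 18 were higher and 4 lower in Adam17ex (median 0.46, against -0.03 over all genes), and 10 were higher and 3 lower in WT (median 0.81, against -0.04). Of all genes, 30.3% were called in Adam17ex and 41.1% in WT. The list was in part chosen with results of these data known, and the cytokines themselves were scarce, with 4 UMIs of Il6 and 3 of Osm in all 16 libraries together. Socs3, the feedback inhibitor induced by STAT3, was 1.77 ± 0.49 higher in Adam17ex (adjusted p = 0.00913) and 3.57 ± 0.45 higher in WT (1.42e-06). Cebpd, a transcription factor of the acute-phase response, was 1.90 ± 0.40 higher in Adam17ex (0.00108) and 3.54 ± 0.43 higher in WT (9.69e-07). Stat3 itself was 1.20 ± 0.21 higher in Adam17ex (0.000159) and 0.94 ± 0.20 higher in WT (0.0005). Osmr, the oncostatin M receptor, was 1.90 ± 0.49 (0.00515) and 2.17 ± 0.40 (0.000141) higher. Besides Extl3, the genes counted as lower were the receptor genes Il6ra, Il11ra1 and, in Adam17ex alone, Lifr. Il11ra1 was at -1.50 ± 0.25 in Adam17ex (9.91e-05) and -1.67 ± 0.26 in WT (2.24e-05). Il6ra was at -0.91 ± 0.27 (0.0126) and -0.62 ± 0.24 (0.0453), in the same order. Lifr was at -0.79 ± 0.20 (0.00461) in Adam17ex and -0.39 ± 0.19 (0.105) in WT. Between the genotypes under PBS and in the interaction edgeR called 0 of the 18, with 4 at an unadjusted p under 0.05 in each, where 16.6% and 21.9% of all genes were.

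In WT PBS replicate 2, where the Reg3 genes were highest, Socs3 had 3.72 CPM and Cebpd 2.98 CPM, below each of the 4 WT cerulein libraries (17.7 to 42.2 CPM of Socs3 and 16.6 to 37.2 CPM of Cebpd). The other 3 WT PBS libraries had 1.05 to 2.45 CPM of Socs3 and 1.05 to 3.53 CPM of Cebpd. Extl3 was lower under cerulein, at -1.54 ± 0.22 in Adam17ex (adjusted p = 1.53e-05) and at -1.12 ± 0.21 in WT (0.000172), and all cerulein libraries (25.2 to 42.2 CPM) were below all PBS libraries (62.3 to 112 CPM). Between the genotypes under cerulein, 2 of the 18 were higher and 1 lower in Adam17ex, where 9.7% of all genes were called. Lif, a cytokine of the interleukin 6 family, was 1.85 ± 0.51 higher (0.0223), with 29.5, 4.44, 14.4 and 20.4 CPM in Adam17ex against 9.04, 2.22, 4.30 and 3.31 CPM in WT. Cebpb was 1.07 ± 0.21 higher (0.00138) and Jak2, a kinase of cytokine receptors, was lower, at -1.11 ± 0.35 (0.0444).

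Digestive enzyme genes, the main secretory products of acinar cells, were counted beside the Reg genes. Of 30 enzyme genes, 2 were higher and 1 lower under cerulein in Adam17ex (median -0.05), and 2 were higher and 12 lower in WT (median -0.42), against 30.3% and 41.1% of all genes called in either direction. Between the genotypes under cerulein 8 of the 30 were higher in Adam17ex and 0 lower (median 0.44), against 9.7% of all genes called, and in the interaction 3 were higher and 0 lower (median 0.50), against 6.02%. The 3 were Clps (1.21, adjusted p = 0.0198), Rnase1 (1.12, 0.0286) and Pnliprp2 (1.08, 0.0393), against 1.94 for Reg3d. The 2 enzyme genes higher under cerulein in Adam17ex were the trypsinogen genes Prss1 (2.34 ± 0.30, adjusted p = 5.40e-06) and Prss3 (1.83 ± 0.41, 0.00169), beside 1.02 ± 0.29 for Reg3d. The difference between Reg3d and the enzyme genes was not tested.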

How the data were processed

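RNA of 16 mouse pancreas samples (30 ng input, poly(A)-primed, 10-base UMIs, 101-base reads) was deposited by the authors as raw UMI counts per gene, per the labels' protocols and the whole-number values. GRCm38 and mm10 stand in the submitters' processing notes, beside R 4.1.2, edgeR 3.36.0 and limma 3.50.0. No source used here gives the aligner, the counter or how UMIs were collapsed. Columns were matched to samples by the labels.

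Genes were kept by filterByExpr (minimum count 10), leaving 8236 of 24019. Library sizes were recomputed over them and scaled by TMM. edgeR 4.0.16 (R 4.3.3) quasi-likelihood tests used group and sex terms over all 16 libraries (11 residual degrees of freedom), with Benjamini-Hochberg adjustment over 8236 genes and a threshold of 0.05. The SE is the fold change over the square root of F. Alternatives used limma 3.58.1, DESeq2 1.42.0, other scalings and filters, left-out libraries and a replicate block. The procedure was tested on simulated data, whose spread followed the trend over genes. Of 2-fold changes, 16% were recovered for the interaction, 22% for genotype under PBS and 42% to 52% for the other comparisons. Of 4-fold changes, 68%, 81% and 89% to 98% were, in the same order. False calls ran from 2 of 86 calls (interaction) to 12 of 143 (cerulein in Adam17ex). Likeness is Pearson's r of log2(CPM + 1), and the 5 most like genes per member are named. The rule for members under the filter was not needed. Sequences were read with Python 3.11.15 and Biopython 1.88, and figures drawn with matplotlib 3.10.9. Members and lists were chosen with earlier results of these data known. Intervals of fold changes are at 95%.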

Additional observations from a re-analysis of the deposited data

Results flagged for a closer look

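In the WT PBS group, replicate 2 lay far from the other 3 libraries for 3 Reg genes. The gap between it and the nearest library was divided by the range of the group on the log2(CPM + 1) scale. This was 0.878 for Reg3g, 0.855 for Reg3b and 0.833 for Reg3d, above Dixon's limit of 0.829 for 4 samples. Reg3a did not pass that limit, though replicate 2 had 11.6 times the highest of the other 3, against 1.92 times for Reg3d. Of 24 such tests (6 genes in 4 groups), chance alone gives about 1 in 20, and the genes are not independent. That a WT PBS library was high in Reg3b was known when these genes were chosen, so these values describe that library and are not independent evidence of it. The cerulein effect on Reg3d differed between Adam17ex and WT, with an interaction of 1.94 on the log2 scale (edgeR adjusted p = 0.00631).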

How the results depend on the processing

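Of the 6 Reg genes, the number called for cerulein in WT (1 with all libraries and the main settings) was 3 with no filter on low counts, 2 with limma-voom, 2 with the replicate block, 4 without WT PBS 1 and 2 together (chosen after seeing the data), and 0 to 3 when 1 library was left out. For cerulein in Adam17ex (2) it was 5 with no filter, 1 with DESeq2, 1 without Adam17ex PBS 1 to 3, 5 without WT PBS 1 and 2, 4 with only the groups compared, and 1 to 4 with 1 library left out. For genotype under cerulein (1) it was 2 with no filter, 2 with limma-voom, 0 in females, 2 without Adam17ex PBS 1 to 3, 2 with only the groups compared, and 0 to 2 with 1 library left out. For genotype under PBS (0) it was 5 with no filter and 0 with 1 library left out. For the interaction (1) it was 5 with no filter, 0 in females and 1 with 1 library left out.

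Genes called changed by over 1.5 times for cerulein in Adam17ex (2493) in females (1422) and without Adam17ex PBS 1 to 3 (1360), and for genotype under cerulein (799) in females (273) and without WT cerulein 1 (402). For genotype under PBS (112) the count ran from 14 with only the groups compared to 406 with no sex term, and for the interaction (496) it was 82 in females, 152 without Adam17ex PBS 1 to 3, and 322, 239 and 314 without WT cerulein 3, Adam17ex cerulein 2 and Adam17ex cerulein 3.

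With no filter on low counts, Reg3a for cerulein in WT was called lower (-0.76, edgeR adjusted p = 0.00323). Signs turned as follows, all as log2 differences. For cerulein in WT, Reg3a was 0.90 and Reg3g 1.19 with limma-voom, 0.25 and 0.38 with the replicate block, and 2.40 and 2.15 without WT PBS 1 and 2. With 1 library left out, Reg3a ran from -1.10 to 1.82, Reg3g from -0.81 to 2.16 and Reg2 from -0.54 to 0.77. For genotype under cerulein these ranges were -0.18 to 0.91 for Reg2, -0.11 to 0.70 for Reg3a and -0.37 to 0.22 for Reg3b. For genotype under PBS, Reg1 was -0.032 with no filter, -0.49 without Adam17ex PBS 1 to 3 and -0.10 without WT PBS 1 and 2, and ran from -0.13 to 0.32 with 1 library left out. Reg3b was 0.14 with limma-voom. Without WT PBS 1 and 2, Reg2 was 1.63, Reg3a 1.06, Reg3b 1.01 and Reg3g 0.76, and with 1 library left out Reg3a ran from -2.60 to 0.46, Reg3b from -1.44 to 0.88 and Reg3g from -2.22 to 0.76. For the interaction, Reg3b was -0.0016 and Reg3g -0.19 with limma-voom. Without WT PBS 1 and 2, Reg2 was -1.34, Reg3a -0.60, Reg3b -0.96 and Reg3g -1.23, and with 1 library left out Reg3a ran from -0.0094 to 3.15, Reg3b from -0.84 to 1.58 and Reg3g from -1.24 to 1.78. The cause was not tested.

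Same-numbered libraries were not clearly alike: their correlation ran from -0.21 to 0.23, over 0.1 in 5 of 24 pairs. Between the 2 Adam17ex groups it was 0.15, -0.0020, 0.11 and 0.23 for replicates 1 to 4. Of 16 libraries, 5 correlated best with their own number. Such correlations cannot tell whether replicates share a litter or a day, which the labels do not state. With the replicate block, Reg3b for cerulein in WT was 1.67 with an edgeR adjusted p of 0.0424, and no other Reg call changed. DESeq2 gave no adjusted p for Reg3a, Reg3b and Reg3g. With 7 UMIs of Reg3g and 10 of Reg3a in Adam17ex PBS replicate 2, depth limits these genes most in Adam17ex PBS.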
